A study of Mus musculus with 80 samples.

Results

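Interferon-stimulated genes, the genes that cells switch on when interferon binds its receptor, were followed in 5 tissues of mice injected with the alpha-emitter 211At. The set held 37 members chosen by symbol, from sensors of viral nucleic acid to antiviral effectors. The choice was made with earlier results of these data known. Of these, 36 were represented on the array by 60 of its 25697 probes, and Ifi44 had no probe. The probe with the highest mean over the 80 arrays stood for each gene.

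Liver, kidney cortex, kidney medulla, lungs and spleen came from adult female BALB/c nude mice (Foxn1nu, labelled Balb/c), an athymic strain that lacks thymus-derived T cells and keeps B cells and innate immune cells. The exposed groups received free 211At into the tail vein and were killed 1 h, 6 h or 7 days after 1.7 kBq (3 arrays per tissue and time), 1 h after 105 kBq (2 arrays per tissue) or 6 h after 7.5 kBq (2 arrays per tissue). The control group (3 arrays per tissue) was mock-treated with phosphate buffered saline and killed after 24 h. No exposed group had a control killed at its own time, so effects of 211At and of the time of killing cannot be told apart. The 5 comparisons of a tissue share its 3 control arrays, and the labels do not tie arrays to individual mice. The study's methods give 3 mice per group for 1.7 kBq and for controls, and 2 mice for each other group. RNA was taken from each tissue sample separately. These are also the numbers of arrays per tissue, as for 1 array per mouse. The methods name technical triplicates as well, which no label marks. The p-values measure the spread between the arrays of a group.

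Type I interferons signal through a receptor with associated kinases to ISGF3, a complex that includes STAT2 and IRF9 and binds the interferon-stimulated response element in the promoters of its targets. Type II interferon induces IRF1 and several of the large GTPases. Unstressed tissues also hold a basal level of these transcripts, kept up by weak constitutive signalling. In bulk tissue, fewer cells of a type and less RNA per cell cannot be told apart.

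Values were quantile-normalised array signals on the log2 scale. A gene counted as measured in a tissue when its probe exceeded a background cutoff of 118 (6.88 on the log2 scale) on at least 2 of the 16 arrays. This held for 32 members in the liver, 31 in kidney cortex, 32 in kidney medulla, 33 in lungs and 34 in spleen. Ifit1 was not measured in any tissue, Oas1a only in spleen, Mx1 only in lungs and spleen, Xaf1 only in kidney medulla, and Oas3 in neither kidney region. A transcript was called regulated at a limma adjusted p under 0.01 together with a change of at least 1.5-fold.

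Tissue markers matched the labels apart from 4 arrays, which carried transcripts of another tissue. Hepatocyte transcripts stood 5.52 log2 units higher on kidney cortex 7.5 kBq 6 h replicate 1 and 7.42 higher on kidney medulla 1.7 kBq 7 d replicate 1, whose own kidney markers were at background. The hepatocyte marker median of that medulla array was 14.3, within the 14.1 to 14.5 of the liver arrays. Its markers were thus those of liver and not of kidney, although its label reads medulla. Proximal tubule transcripts stood 3.18 higher on lungs 7.5 kBq 6 h replicate 1, and exocrine pancreas transcripts 6.22 higher on spleen 1.7 kBq 7 d replicate 1. No liver array was among them. Each also entered the spread of its whole tissue, so counts that moved by over 1.5 times without it are given both ways.

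The response element can be read in the promoters of these genes. The letters GAAA and GAAA with any 2 bases between them, or TTTC and TTTC so spaced on the opposite strand, were searched in RefSeq windows of 250 bases before to 50 bases after each start (GRCm38.p6, the C57BL/6J reference and not the strain used here). Windows were found for 28 members, and 17 of these genes (60.7%) held at least 1 match, against 1079 of all 27025 genes (3.99%). Among the 10 members called in the liver 1 h after 1.7 kBq, Ifit3, Gbp2, Gbp3, Rsad2 and Isg15 had a match. Ifit2, Cmpk2, Oasl1 and Oasl2 had none in this window, and Usp18 had no entry. Matches were not confined to the called members. Ifih1, Ddx58, Stat2, Oas1g, Oas3, Eif2ak2, Bst2, Irgm1, Igtp and Cxcl10, measured in the liver but not called there at this time, had a match. So had Ifit1 and Oas1a, which were not measured in the liver. The stretches around the matches of the 5 called genes are shown. Capitals mark the matched letters, each stretch reads 5′ to 3′ on the strand of its gene, and adjoining matches overlap in Gbp3 and Isg15. The Ifit3 stretch lies at chr19:34583313-34583476 (+), Gbp2 at chr3:142620544-142620662 (+), Gbp3 at chr3:142559939-142560043 (+), Rsad2 at chr12:26456503-26456632 (-) and Isg15 at chr4:156200819-156200956 (-).
Ifit3: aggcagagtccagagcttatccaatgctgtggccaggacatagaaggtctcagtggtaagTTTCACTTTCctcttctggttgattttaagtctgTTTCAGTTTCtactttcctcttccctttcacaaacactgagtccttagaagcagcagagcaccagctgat
Gbp2: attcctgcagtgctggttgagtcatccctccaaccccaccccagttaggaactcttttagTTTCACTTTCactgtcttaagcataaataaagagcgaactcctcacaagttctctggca
Gbp3: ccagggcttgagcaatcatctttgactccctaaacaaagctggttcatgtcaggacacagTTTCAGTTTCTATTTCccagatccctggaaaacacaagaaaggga
Rsad2: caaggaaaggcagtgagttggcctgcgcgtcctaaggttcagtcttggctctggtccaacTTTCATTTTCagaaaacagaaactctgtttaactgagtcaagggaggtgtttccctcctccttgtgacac
Isg15: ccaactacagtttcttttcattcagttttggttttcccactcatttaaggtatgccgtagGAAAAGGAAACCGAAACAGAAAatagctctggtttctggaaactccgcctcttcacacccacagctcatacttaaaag
The first match base lay 156 and 122 bases before the start in Ifit3, 59 in Gbp2, 45 and 39 in Gbp3, 120 in Rsad2, and 78, 72 and 66 in Isg15. A match describes letters and not a bound site.

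Interferon-stimulated genes were lower in the liver 1 h after 1.7 kBq 211At. Of 32 measured members, 31 were lower than in controls and 10 were downregulated transcripts by the call rule, which 0.484% of all 17785 liver probes met in the same direction. The 10, in order of size, were Ifit3, Gbp3, Oasl2, Ifit2, Cmpk2, Gbp2, Isg15, Oasl1, Rsad2 and Usp18, and they ranged from 2.77-fold to 1.51-fold lower. The median log2 fold change was -0.46 over the members, against 0.00 over all probes, of which 49.8% were lower. For 23 members every exposed array lay below every control array, a pattern found in 10.1% of all liver probes. No member was upregulated in any of the 25 comparisons of exposed with control tissue.

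**Figure D1:**
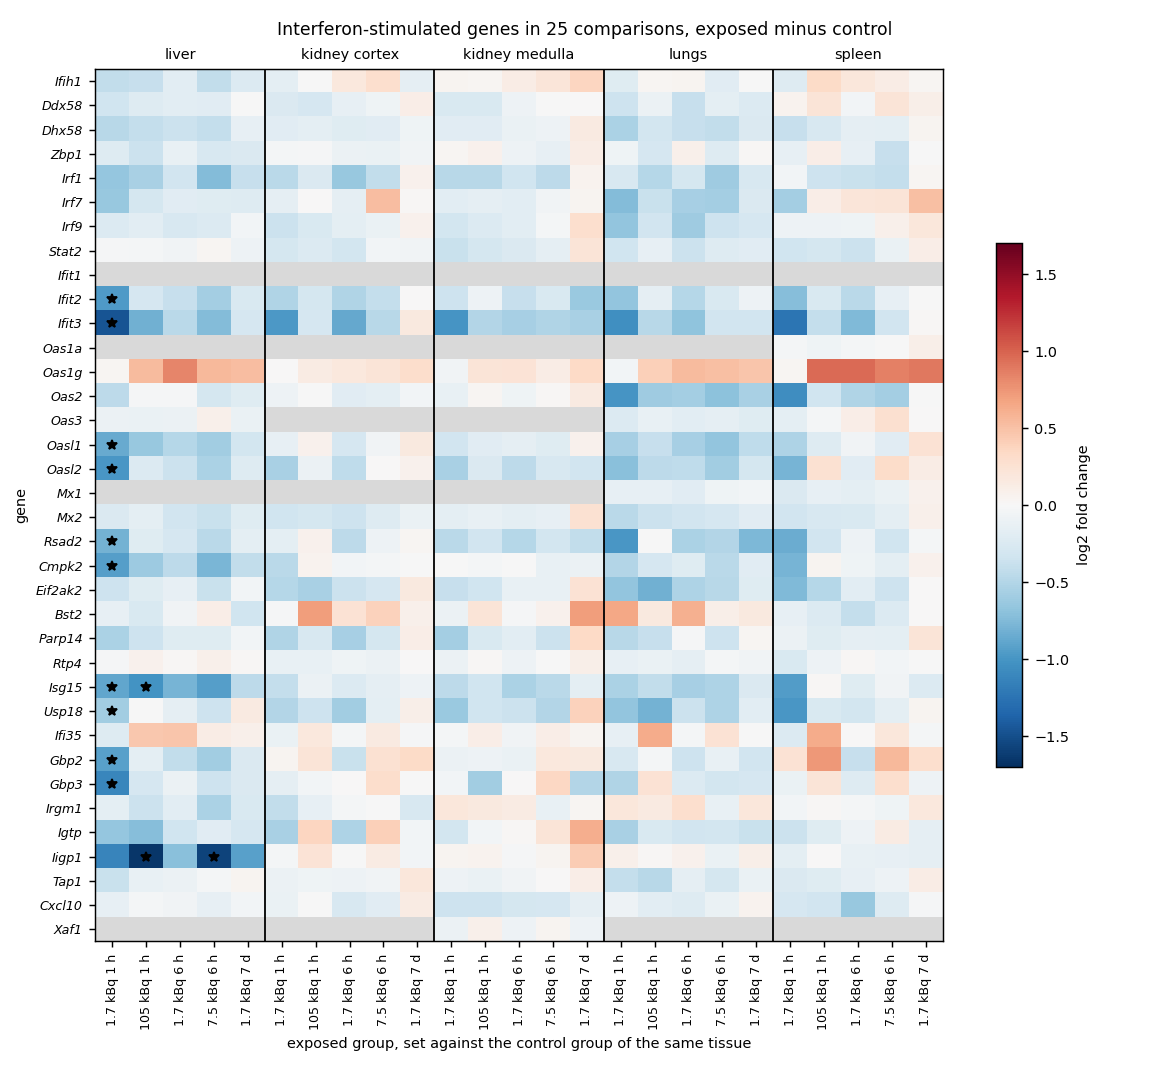
Log2 fold change of 36 interferon-stimulated genes (rows, ordered by role) in 25 comparisons of exposed with control tissue (columns, grouped by tissue), with blue for lower and red for higher. Stars mark adjusted p under 0.01 with at least 1.5-fold change, and grey marks genes not measured in that tissue. All 13 stars stand in the liver columns, 10 of them 1 h after 1.7 kBq. With the kidney medulla array that had liver markers left out, Ifit3 also passed in medulla 1 h after 1.7 kBq.

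The 4 sensors of viral nucleic acid did not pass the call rule in the liver 1 h after 1.7 kBq. Dhx58, which encodes LGP2, a regulator of RNA sensing, was measured at 7.42, 7.54 and 7.58 in exposed livers, against 8.0, 7.91 and 8.03 in control livers. The groups did not overlap and the adjusted p was 0.00172, while the change of -0.47 (SE 0.07) stayed under 1.5-fold. Ifih1 (the RNA sensor MDA5), Ddx58 (the RNA sensor RIG-I) and Zbp1 (a sensor of left-handed nucleic acid) differed by -0.42, -0.34 and -0.22, with adjusted p of 0.133, 0.0426 and 0.275. All 4 sensors were thus below controls on average. They differed by less than the called genes before background subtraction, a step that enlarged the log2 fold changes of called members.

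Among the transcription factors of the pathway, Irf1 and Irf7 showed the largest differences. Irf1, a factor induced by type II interferon, was measured at 10.11, 10.46 and 10.35 in exposed livers, against 11.10, 10.91 and 10.88 in control livers. The groups did not overlap, yet the change of -0.66 (SE 0.14) missed the threshold with an adjusted p of 0.0119. A second Irf1 probe passed at -0.74 (adjusted p = 0.00256), and 3 further Irf1 probes did not. Irf7, the factor that amplifies type I interferon production, differed by -0.65 (adjusted p = 0.0183). The measured ISGF3 components among the members differed less from controls, with Irf9 at -0.24 (adjusted p = 0.304) and Stat2 at -0.02 (adjusted p = 0.946).

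The IFIT proteins bind viral RNA and block its translation, and both measured members fell. Ifit3 had signals of 7.66, 7.75 and 7.71 in exposed livers, against 9.37, 9.03 and 9.14 in control livers. It was the most strongly lowered member at this time, 2.77-fold lower on non-overlapping arrays (-1.47, SE 0.16, adjusted p = 8.8e-05). Of its further probes, 2 were lower by -0.79 and -0.78 without passing (adjusted p = 0.0135 and 0.0144). Ifit2 had signals of 7.12, 7.39 and 7.38 in exposed livers, against 8.56, 8.04 and 8.19 in control livers. It was 1.95-fold lower (-0.97, SE 0.13, adjusted p = 0.000658), and its second probe passed as well at -0.95 (adjusted p = 0.00131). Neither gene's arrays overlapped between the groups.

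The oligoadenylate synthetase family makes the 2-5A messenger that activates RNase L. Oasl2 had signals of 7.80, 8.56 and 8.22 in exposed livers, against 9.40, 8.98 and 9.18 in control livers, and fell by 0.99 on the log2 scale (SE 0.16, adjusted p = 0.00197). Oasl1, a translational inhibitor of Irf7 in mice, had 7.06, 7.35 and 7.62 in exposed livers, against 8.32, 7.98 and 8.30 in control livers. It fell by 0.85 (SE 0.14, adjusted p = 0.00217). Exposed and control arrays of both genes were separate, with replicate 1 the lowest exposed array for each. A second Oasl2 probe differed by -0.13 and a second Oasl1 probe by -0.48, neither past the threshold. Oas2 differed by -0.45 (adjusted p = 0.0558), and Oas3, whose control signals of 6.86, 6.82 and 6.81 lay at the background cutoff, by -0.10. Oas1g was the single measured member above its control mean, at 0.03 (adjusted p = 0.982).

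Of the other antiviral effectors, Rsad2 and Cmpk2 fell. These neighbouring genes encode viperin, a radical-SAM enzyme that makes a chain-terminating nucleotide, and a mitochondrial nucleotide kinase. Rsad2 had 7.88, 8.0 and 8.10 in exposed livers, against 9.08, 8.55 and 8.76 in control livers (-0.80, SE 0.15, adjusted p = 0.00614). Cmpk2 had 7.34, 7.73 and 7.62 in exposed livers, against 8.82, 8.19 and 8.48 in control livers (-0.93, SE 0.15, adjusted p = 0.00169). Both were lower on every exposed array. Parp14, an ADP-ribosyltransferase, and Eif2ak2, which encodes the RNA-activated kinase PKR, also had non-overlapping arrays but differed by -0.53 (adjusted p = 0.0183) and -0.35 (adjusted p = 0.0909). Mx2, Bst2 (tetherin, which holds budding virions at the membrane) and the chaperone Rtp4 differed by -0.24, -0.13 and -0.02, with overlapping arrays.

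The ubiquitin-like modifier Isg15 and its protease Usp18, which also restrains the type I interferon receptor, both fell. Isg15 had 7.78, 8.15 and 7.86 in exposed livers, against 9.0, 8.86 and 8.57 in control livers (-0.88, SE 0.18, adjusted p = 0.00876). Usp18 had 8.78, 8.99 and 8.91 in exposed livers, against 9.5, 9.41 and 9.54 in control livers (-0.59, SE 0.09, adjusted p = 0.00188). The exposed arrays lay below the control arrays for both, and Usp18 was just past the 1.5-fold threshold at 1.51-fold. Further Usp18 probes differed by -0.48 and -0.51 without passing. The Isg15 call was lost when any 1 of the 6 arrays compared was left out.

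The interferon-inducible GTPases guard membranes against intracellular bacteria and parasites. Gbp3 had 8.19, 8.80 and 8.48 in exposed livers, against 9.73, 9.58 and 9.49 in control livers, a 2.16-fold difference (-1.11, SE 0.17, adjusted p = 0.00143). Gbp2 had 8.37, 8.39 and 8.03 in exposed livers, against 9.14, 9.44 and 8.96 in control livers (-0.92, SE 0.14, adjusted p = 0.00119). Both fell with no overlap between the groups. A second Gbp3 probe passed at -1.10, whereas the further Gbp2 probes differed by -0.08 and -0.05. Iigp1 had a larger mean difference than Gbp3, but its exposed arrays were widely spread at 6.96, 7.85 and 7.40, against 8.37, 8.51 and 8.72 in control livers (-1.13, SE 0.24, adjusted p = 0.0142). The regulatory GTPases Igtp and Irgm1 differed by -0.66 (adjusted p = 0.0451) and -0.17 (adjusted p = 0.657).

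The remaining measured members were Ifi35, the peptide transporter Tap1 and the chemokine Cxcl10. They differed by -0.22, -0.38 and -0.14, and none passed. In all, 19 further probes of 12 members were measured in the liver. Of these, 18 were lower and 3 passed, those of Gbp3, Irf1 and Ifit2, against 49.8% lower and 0.484% called lower among all probes.

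**Figure D2:**
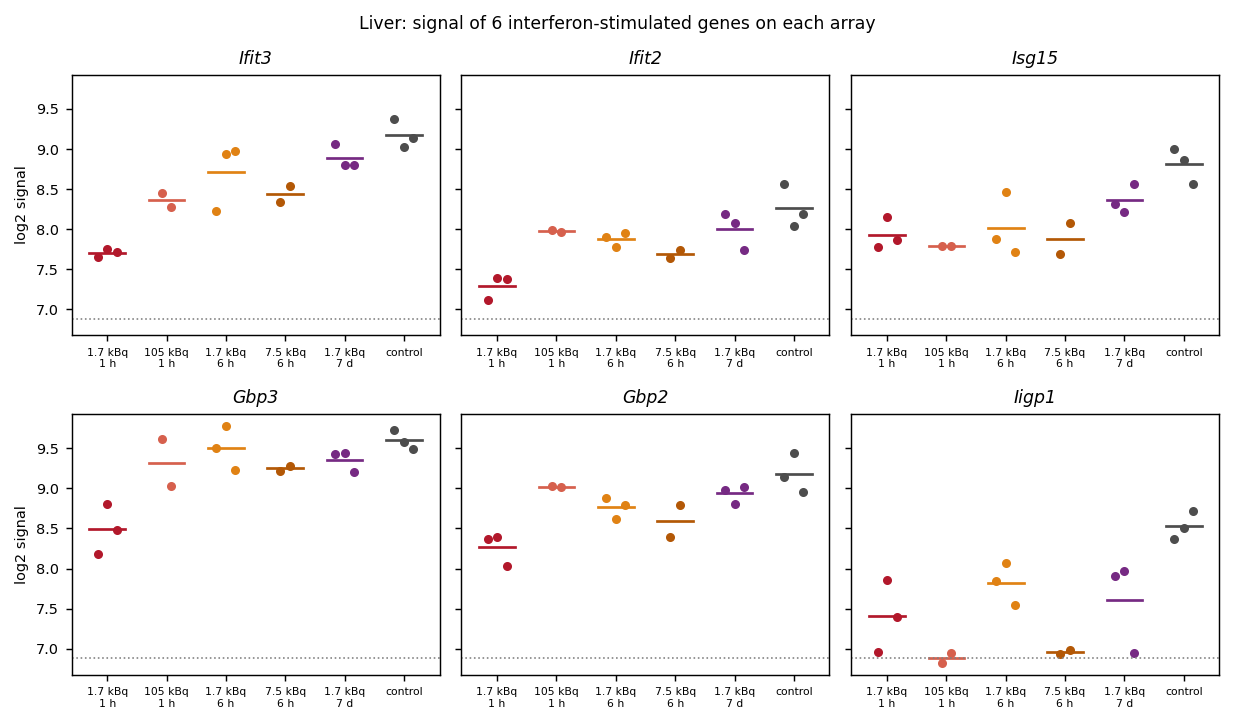
Log2 signal of 6 interferon-stimulated genes on each liver array (points) by group, with the group mean as a bar and the background cutoff as a dotted line. Ifit3, Ifit2, Gbp3 and Gbp2 have their lowest mean 1 h after 1.7 kBq, whereas Iigp1 lies at the cutoff in both groups given a higher activity.

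The called liver members differed in how many leave-outs and settings they held. Ifit2, Ifit3, Oasl2 and Gbp2 stayed called whichever of the 6 arrays was left out, but Oasl2 lost the call after background subtraction (adjusted p = 0.0137) and in the fit of the 2 groups alone. Among the leave-outs, Gbp3 and Cmpk2 lost the call in that of 1.7 kBq 1 h replicate 1 alone. Oasl1 lost it without that array or without control replicate 3, Usp18 without either of these or without control replicate 1, and Rsad2 in all leave-outs except that of control replicate 2. With 1.7 kBq 1 h replicate 1 left out, 4 members were called, and with control replicate 3 left out, 6. A fit to the 6 arrays of this comparison alone called 5, none of them Oasl1, Oasl2, Rsad2, Cmpk2 or Usp18. After background subtraction 7 were called, none of them Oasl1, Oasl2, Rsad2 or Isg15, and the log2 fold changes of Ifit2 and Oasl1 were then -2.01 and -1.85.

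Genes of the same pathway outside the member set were read beside them. These lists, like the members, were chosen with earlier results of these data known, so they are not independent of the members' result. Of 51 further interferon-stimulated genes measured in the liver 1 h after 1.7 kBq, 48 were lower and 8 fell past the threshold. Of all liver probes, 49.8% were lower and 0.484% were called lower. The 8 called were the GTPase genes Ifi47 (-1.27), Irgm2 (-1.02) and Gbp7 (-0.60), the immunoproteasome subunit gene Psmb9 (-0.75), the nuclear body gene Pml (-0.74), Lgals3bp (-0.69), Parp12 (-0.62) and Phf11a (-0.59). The median of this list was -0.23. Among 18 upstream sensors, adaptors and IRFs, 8 were lower, and only Rnf125, a ubiquitin ligase that targets RIG-I and MDA5, was called, at -1.77 (adjusted p = 3.27e-05). Among 14 receptors, kinases, STATs and inhibitors 11 were lower and none was called (median -0.16). Of 7 measured interferon genes, 3 were lower and none was called (median 0.01).

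Markers of some blood and immune cells were low in these livers as well. All 8 measured macrophage and Kupffer cell markers were lower 1 h after 1.7 kBq (median -0.62), as were 5 of 5 monocyte markers (median -0.51) and 10 of 11 neutrophil markers (median -0.74), none of them called. The summed macrophage signal was 12.05 to 12.44 on the log2 scale in exposed livers, against 12.64 to 13.52 in control livers, and the macrophage marker Cd5l was under the cutoff on every liver array. Summed neutrophil signal was 11.62 to 13.48 in exposed livers, against 11.88 to 14.69 in control livers. For monocytes it was 10.77 to 11.53 in exposed livers, against 11.26 to 12.59 in control livers. All 7 measured markers of plasmacytoid dendritic cells, the main producers of type I interferon, were lower with a median of -0.09. Hepatocyte markers had a median of -0.05, B and plasma cell markers -0.01 and T and NK cell markers -0.04. Macrophage and Kupffer cell markers were 8 of 8 lower in each other comparison of exposed with control livers as well. Their medians were -0.32 at 1 h after 105 kBq, -0.25 at 6 h after 1.7 kBq, -0.14 at 6 h after 7.5 kBq and -0.30 at 7 d. The part of these cells in the members' difference was not tested.

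At the higher activity and 1 h, 29 of 32 members were lower in the liver and 2 were called, against 0.365% of all probes. Iigp1 had 6.83 and 6.94 in livers given 105 kBq, against 8.37, 8.51 and 8.72 in control livers. It was 3.13-fold lower (-1.65, SE 0.27, adjusted p = 0.00346). Only 1 of the 2 livers given 105 kBq exceeded background, so the fold rests partly on signal at the cutoff. A second Iigp1 probe passed at -1.01 (adjusted p = 0.00817). Isg15 had 7.79 and 7.79 in livers given 105 kBq, against 9.0, 8.86 and 8.57 in control livers, and was 2.03-fold lower (-1.02, SE 0.20, adjusted p = 0.00879). Both exposed arrays lay well below the control arrays for both genes. In the leave-outs Iigp1 kept its call only without control replicate 1, and Isg15 lost it without any 1 of the 5 arrays. With trend and robust variance Iigp1 was at an adjusted p of 0.0103, and after background subtraction neither was called. Ifit3, at 8.45 and 8.27, differed by -0.82 (adjusted p = 0.0164), and the median over members was -0.25.

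The 2 activities were set against each other directly at 1 h. Of 32 members, 24 were higher after 105 kBq than after 1.7 kBq, with a median of 0.14, and none was called higher, as against 0.00562% of all probes. Gbp3 and Gbp2 were 0.83 and 0.76 higher after 105 kBq, and Iigp1 and Irgm1 differed by -0.52 and -0.19. The smallest adjusted p was 0.124, and 9 members were higher at an unadjusted p under 0.05, as were 4.95% of all probes. Macrophage and Kupffer cell markers were higher too, 7 of 8 of them after 105 kBq (median 0.20). So were 4 of 5 monocyte markers (0.23) and 8 of 11 neutrophil markers (0.44). B and plasma cell markers and T and NK cell markers each had a median of 0.01. The part of these cells in the members' values was not tested.

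At 6 h after 1.7 kBq, 29 of 32 members were lower in the liver and none was called by limma, against 0.236% of all probes, while 12 were lower at an unadjusted p under 0.05, as were 5.81% of all probes. The median was -0.19. Among the lower members Isg15 and Iigp1 differed most, at -0.79 (adjusted p = 0.0284) and -0.71 (adjusted p = 0.179), and Oas1g and Ifi35 were 0.83 and 0.47 above controls. Isg15 arrays were spread at 7.88, 8.46 and 7.72 in exposed livers, against 9.0, 8.86 and 8.57 in control livers, without overlap. Ifit3 arrays stood at 8.23, 8.93 and 8.98, against 9.37, 9.03 and 9.14 in control livers, so that replicates 2 and 3 came close to the lowest control.

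At 6 h after 7.5 kBq, 26 of 32 members were lower and only Iigp1 was called, against 0.388% of all probes. Iigp1 had 6.93 and 6.98 in livers given 7.5 kBq, against 8.37, 8.51 and 8.72 in control livers (-1.57, SE 0.27, adjusted p = 0.00374). Both exposed arrays were just above the cutoff and far below the controls. The call held in 1 of 5 leave-outs, that of control replicate 1. It was lost with trend and robust variance (adjusted p = 0.0125) and after background subtraction (adjusted p = 0.0347). Further probes of Iigp1 (-1.10), Irgm1 (-0.67) and Irf1 (-0.76) also passed. Cmpk2, Isg15 and Irf1 differed by -0.78, -0.93 and -0.74, with adjusted p of 0.0132, 0.0137 and 0.0130. The median over members was -0.35. Against 1.7 kBq at 6 h, 8 of 32 members were higher and none was called (0% of all probes), with Iigp1 at -0.86 and Irf1 at -0.41 at one end and Oas3 at 0.18 and Bst2 at 0.17 at the other.

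At 7 d after 1.7 kBq, 27 of 32 members were lower in the liver with a median of -0.22, and none was called, against 0.00562% of all probes. At an unadjusted p under 0.05, 6 were lower, as were 3.92% of all probes. Iigp1 and Isg15 differed by -0.92 and -0.45, and Oas1g and Usp18 by 0.53 and 0.15. The Iigp1 arrays were split, with 7.90 and 7.97 on replicates 1 and 2 and 6.94 on replicate 3. Ifit3 stood at 9.06, 8.80 and 8.80, of which replicate 1 was above the lowest control array.

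The fall at 1 h could also be read without the control group, against livers taken 7 days after the same activity. Of 32 members, 27 were lower at 1 h and 2 were called, against 0.191% of all probes. Ifit3, at 7.66, 7.75 and 7.71 in livers at 1 h, against 9.06, 8.80 and 8.80 in livers at 7 d, was 2.27-fold lower (-1.18, SE 0.16, adjusted p = 0.00153). Usp18, at 8.78, 8.99 and 8.91 at 1 h, against 9.58, 9.5 and 9.82 at 7 d, was 1.67-fold lower (-0.74, SE 0.09, adjusted p = 0.00101). Neither gene overlapped between the times. Further probes of Usp18 (-0.72) and Gbp3 (-0.81) passed too. Ifit3 lost the call without 1.7 kBq 1 h replicate 1 or without 7 d replicate 1. At 6 h against 7 d, 19 of 32 members were lower and none was called (0.0956% of all probes), with Isg15 at -0.34 and Usp18 at -0.30, and Ifi35 at 0.38 and Oas1g at 0.30.

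**Figure D3:**
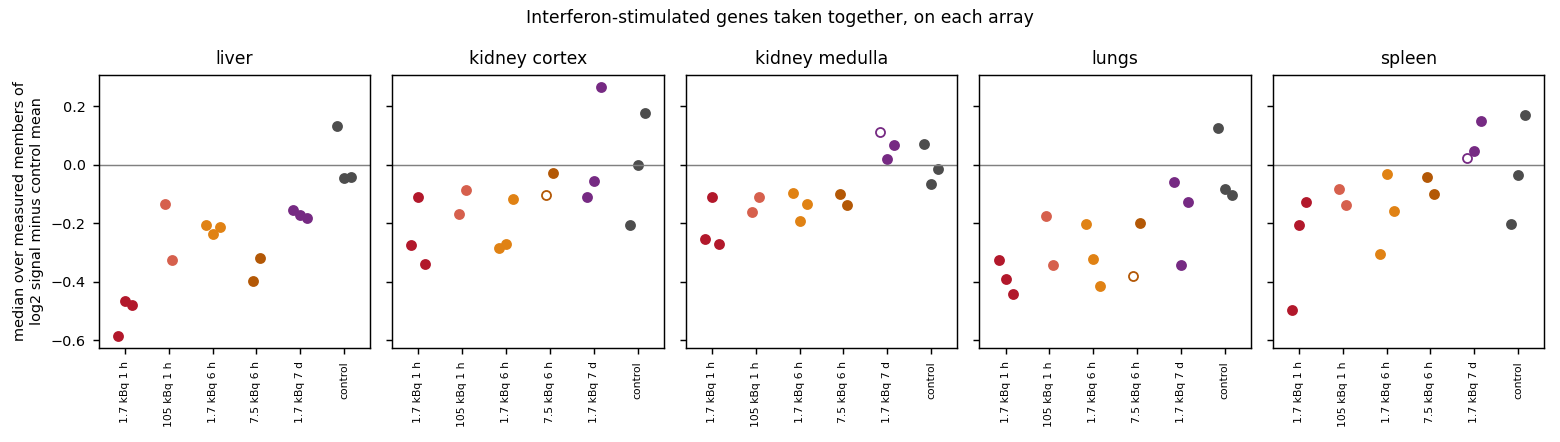
Median over the measured members of the log2 signal minus the mean of the control arrays, for each array (points) of 5 tissues by group. Open points are the 4 arrays with transcripts of another tissue. The 3 liver arrays 1 h after 1.7 kBq are at -0.59, -0.46 and -0.48, below every other liver array.

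Read array by array, the members were low together in the exposed livers. Their median deviation was -0.59, -0.46 and -0.48 on the 3 arrays 1 h after 1.7 kBq and -0.40 and -0.32 on those 6 h after 7.5 kBq. It was -0.13 and -0.33 at 1 h after 105 kBq, -0.21, -0.24 and -0.21 at 6 h after 1.7 kBq, and -0.16, -0.17 and -0.18 at 7 d. Control livers were at 0.13, -0.04 and -0.04. All 13 exposed arrays lay below the 3 control arrays.

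In the other tissues the members were also mostly lower 1 h after 1.7 kBq, but no member was called by limma with all arrays kept. At an unadjusted p under 0.05, 10 members were lower in cortex, 8 in medulla, 19 in lungs and 10 in spleen, against 4.13%, 5.33%, 5.5% and 3.17% of all probes in that order. In lungs 1 member was higher at that p (5.59% of all probes). Without the medulla array that carried hepatocyte transcripts, 16 medulla members were lower at that p (11.3% of all probes), and 6 reached an adjusted p under 0.05 (4.2% of all probes). Of the 31 members measured in all 5 tissues, 23 were lower than controls in every tissue and 4 (Bst2, Ddx58, Ifih1 and Zbp1) in 4 tissues. Oas1g, Gbp2, Irgm1 and Iigp1 were lower in fewer. The tissues may come from the same mice, so these are not independent repeats.

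Ifit3 had the lowest log2 fold change of all members in each of the 5 tissues at this time. In lungs it had 9.60, 9.61 and 8.94 in exposed mice, against 10.36, 10.29 and 10.64 in controls (-1.05, SE 0.22, adjusted p = 0.0755). In spleen it had 7.88, 9.02 and 8.22 in exposed mice, against 9.06, 9.55 and 10.23 in controls (-1.24, SE 0.32, adjusted p = 0.239). Both tissues showed separate arrays, with spleen replicate 2 close to the lowest control. In kidney cortex it had 8.24, 8.82 and 7.74 in exposed mice, against 8.82, 9.16 and 9.76 in controls (-0.98, SE 0.34, adjusted p = 0.284). In kidney medulla it had 8.62, 8.99 and 8.25 in exposed mice, against 9.72, 9.39 and 9.78 in controls (-1.01, SE 0.38, adjusted p = 0.347). The groups were separate in both kidney regions, but in cortex the highest exposed array, at 8.815, lay only just below the lowest control, at 8.823. Without the medulla array that carried hepatocyte transcripts, the medulla fit gave an adjusted p of 0.00675 for the same change (SE 0.16), and Ifit3 was then called there, against 0.118% of all probes.

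**Figure D4:**
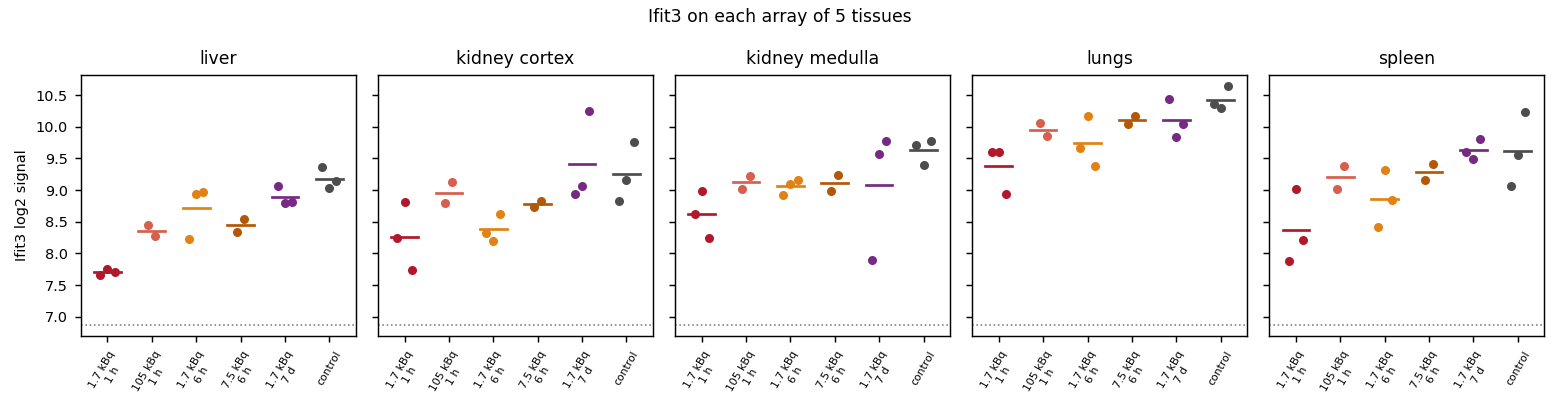
Log2 signal of Ifit3 on each array of 5 tissues by group (points), with the group mean as a bar and the background cutoff as a dotted line. The mean is lowest 1 h after 1.7 kBq in each tissue. The low kidney medulla array 7 d after 1.7 kBq, at 7.90, is the one with hepatocyte transcripts.

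Lungs showed the largest member shift after the liver. Of 33 members, 30 were lower 1 h after 1.7 kBq with a median of -0.45, and 17 had all exposed arrays below all control arrays (7.53% of all probes). None was called (0.00634% of all probes). Dhx58 had 7.01, 7.00 and 7.16 in exposed lungs, against 7.74, 7.52 and 7.54 in control lungs (-0.54, SE 0.09, adjusted p = 0.0165). Eif2ak2 had 9.35, 9.69 and 9.70 in exposed lungs, against 10.36, 10.32 and 10.10 in control lungs (-0.68, SE 0.13, adjusted p = 0.0451). Both genes had separate groups. Oas2 and Rsad2 differed by -1.0 and -1.0, and Bst2 and Irgm1 were above controls by 0.66 and 0.19. Macrophage markers in these lungs had a median of 0.12 with 1 of 7 lower, monocyte markers -0.05 and neutrophil markers -0.16.

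In spleen, 31 of 34 members were lower 1 h after 1.7 kBq, with a median of -0.25 and none called (0% of all probes). The arrays were separate for 8 of 34 members (5.22% of all probes). After Ifit3, the largest differences were those of Oas2 (-1.06) and Usp18 (-0.99), and Gbp2 (0.25) and Ddx58 (0.05) were above controls. Isg15 had 8.97, 10.26 and 9.05 in exposed spleens, against 9.95, 10.41 and 10.75 in control spleens, where replicate 2 overlapped the controls. In these spleens 12 of 13 neutrophil markers were lower with a median of -0.99, and 8 of 8 B and plasma cell markers were higher with a median of 0.56. Their part in the members' values was not tested.

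In kidney cortex, 29 of 31 members were lower 1 h after 1.7 kBq, with a median of -0.19 and none called (0.00617% of all probes). The arrays were separate for 6 of 31 members (6.44% of all probes). Mx2, a GTPase gene of the antiviral Mx family, had 6.88, 7.06 and 6.96 in exposed cortex, against 7.35, 7.20 and 7.35 in control cortex (-0.33, SE 0.06, adjusted p = 0.0262). The next largest difference after Ifit3 was that of Igtp (-0.56), and Gbp2 and Oas1g were at 0.05 and 0.00. In kidney medulla, 28 of 32 members were lower with a median of -0.19 and none called (0% of all probes). The arrays were separate for 13 members of 32, against 12.6% of all medulla probes. Usp18 had 7.57, 8.04 and 7.71 in exposed medulla, against 8.55, 8.32 and 8.36 in control medulla (-0.63, SE 0.14, adjusted p = 0.11), and Irgm1 and Iigp1 were 0.19 and 0.05 above controls. In medulla 7 of 8 neutrophil markers (median -0.15) and 5 of 5 red cell markers (-0.31) were lower at this time, and in cortex 5 of 8 (-0.13) and 4 of 5 (-0.18). Their part in the members' values was not tested.

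At 1 h after 105 kBq, the members below controls in the other tissues numbered 21 of 31 in cortex (median -0.07), 22 of 32 in medulla (-0.14), 26 of 33 in lungs (-0.26) and 21 of 34 in spleen (-0.12). None was called, against 0.0185% of all probes in cortex, 0% in medulla, 0.0127% in lungs and 0% in spleen. Unadjusted p was under 0.05 for 2, 3, 6 and 1 lower members in that order of tissues, against 7.15%, 3.8%, 4.85% and 3% of all probes. In medulla without the array with hepatocyte transcripts it was 8 members (9.26% of all probes), 1 of them at an adjusted p under 0.05 (1.77% of all probes). In that fit 11 probes were called lower, none of them a member. With all arrays kept, members higher at an unadjusted p under 0.05 were 1 in cortex (5.7% of all probes) and 1 in spleen (2.93%). Without control replicate 3, 16 of 31 members were lower in cortex (median -0.01). In lungs Eif2ak2 had 9.41 and 9.48 in exposed mice, against 10.36, 10.32 and 10.10 in controls (-0.81, SE 0.14, adjusted p = 0.0301), and Usp18 differed by -0.81. Ifi35 and Oas1g were 0.63 and 0.40 above controls there. In cortex, Eif2ak2 (-0.55) and Usp18 (-0.35) were lowest, and Bst2 (0.71) and Igtp (0.36) highest. In medulla, Gbp3 (-0.59) and Ifit3 (-0.50) were lowest, and Oas1g (0.22) and Bst2 (0.21) highest. In spleen, Eif2ak2 (-0.48) and Ifit3 (-0.41) were lowest, and Oas1g (0.96) and Gbp2 (0.74) highest. The Oas1g mean in spleen rested on a single array, with 8.65 and 6.78 on replicates 1 and 2.

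Against 1.7 kBq at 1 h, members were mostly higher after 105 kBq in these tissues as well. This held for 29 of 31 in cortex (median 0.16), 26 of 32 in medulla (0.08), 24 of 33 in lungs (0.20) and 28 of 34 in spleen (0.21). No member was called higher, and neither was any probe (0%) in these 4 tissues. At an unadjusted p under 0.05, 4 members were higher in cortex, 2 in medulla, 4 in lungs and 8 in spleen, against 4.26%, 0.734%, 2.22% and 2.15% of all probes. Without the array with hepatocyte transcripts it was 4 in medulla (1.91%). The largest differences were those of Igtp (0.92) and Bst2 (0.73) in cortex, Ifit3 (0.50) and Parp14 (0.31) in medulla, Rsad2 (0.99) and Ifi35 (0.78) in lungs, and Oasl2 (1.06) and Isg15 (0.97) in spleen. At the other end stood Eif2ak2 (-0.07) and Ddx58 (-0.04) in cortex, Gbp3 (-0.55) and Tap1 (-0.03) in medulla, Bst2 (-0.49) and Zbp1 (-0.22) in lungs, and Irf1 (-0.30) and Parp14 (-0.11) in spleen. In spleen, neutrophil markers were higher too, 11 of 13 of them after 105 kBq with a median of 0.89. In lungs all 7 measured hepatocyte markers were higher after 105 kBq, with a median of 1.20. Red cell markers were higher after 105 kBq in both kidney regions, 5 of 5 in each, with medians of 0.47 and 0.47. The part of any of these in the members' values was not tested.

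At 6 h after 1.7 kBq, 27 of 31 members were lower in cortex (median -0.20), 27 of 32 in medulla (-0.11), 27 of 33 in lungs (-0.32) and 28 of 34 in spleen (-0.15). None was called, against 0.0123% of all probes in cortex and 0% in medulla, lungs and spleen. At an unadjusted p under 0.05, 10 members were lower in cortex, 2 in medulla, 15 in lungs and 3 in spleen, against 5.53%, 2.14%, 4.32% and 4.85% of all probes. Without the medulla array with hepatocyte transcripts it was 9 in medulla (5.96%). Ifit3 was again lowest in all 4, at -0.86 (SE 0.34) in cortex, -0.57 (SE 0.38) in medulla, -0.69 (SE 0.22) in lungs and -0.75 (SE 0.32) in spleen. It was followed by Irf1 (-0.64), Isg15 (-0.54), the ISGF3 subunit gene Irf9 (-0.61) and Cxcl10 (-0.64) in the same order of tissues. The highest were Bst2 (0.25) and Oas1g (0.18) in cortex, Oas1g (0.23) and Irgm1 (0.14) in medulla, Bst2 (0.61) and Oas1g (0.53) in lungs, and Oas1g (0.96) and Irf7 (0.20) in spleen. The Oas1g mean in spleen rested on a single array, with 6.67, 9.74 and 6.73 on the replicates. Mx2 in cortex had 6.91, 6.95 and 6.97 in exposed mice, against 7.35, 7.20 and 7.35 in controls (-0.36, SE 0.06, adjusted p = 0.0372).

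At 6 h after 7.5 kBq, 21 of 31 members were lower in cortex, 21 of 32 in medulla, 30 of 33 in lungs and 23 of 34 in spleen, with medians of -0.08, -0.11, -0.30 and -0.11. None was called, against 0.0123% of all probes in cortex and 0% in the other 3. At an unadjusted p under 0.05, 3 members were higher in cortex with all arrays kept (4.87% of all probes). Lower at that p were 3 members in cortex, 3 in medulla, 10 in lungs and 0 in spleen, against 6.89%, 1.71%, 3.69% and 3.01% of all probes. Without the lung array that carried tubule transcripts it was 4 in lungs (1.43%), and without the cortex array with hepatocyte transcripts 2 in cortex (2.38%). Leaving out the replicate with transcripts of another tissue gave 19 of 31 lower in cortex (-0.03) and 29 of 33 in lungs (-0.20). Without control replicate 3 the members were not mostly lower in cortex (15 of 31, median 0.02) or spleen (16 of 34, 0.00). Lowest were Ifit3 (-0.47) and Irf1 (-0.41) in cortex, Ifit3 (-0.52) and Usp18 (-0.50) in medulla, Oas2 (-0.70) and Oasl1 (-0.67) in lungs, and Oas2 (-0.58) and Irf1 (-0.40) in spleen. Highest were Irf7 (0.53) and Igtp (0.40) in cortex, Gbp3 (0.36) and Igtp (0.22) in medulla, Oas1g (0.51) and Ifi35 (0.25) in lungs, and Oas1g (0.86) and Gbp2 (0.55) in spleen. Without the arrays named above, Ifit3 was at -0.42 and Igtp at 0.42 in cortex, and Rsad2 at -1.11 and Oas1g at 1.07 in lungs. Against 1.7 kBq at 6 h, 29 of 31 members were higher in cortex, 23 of 32 in medulla, 16 of 33 in lungs and 20 of 34 in spleen, with no probe called higher (0%). Without the arrays with transcripts of another tissue, 25 of 31 were higher in cortex and 18 of 33 in lungs. In cortex 8 of 8 neutrophil markers (median 0.17), 6 of 7 macrophage markers (0.43) and 9 of 9 hepatocyte markers (2.66) were higher in this contrast as well, and their part in the members' values was not tested.

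At 7 d after 1.7 kBq the members in lungs were mostly lower, and those in medulla mostly higher, while the direction in cortex and spleen turned with single arrays. In cortex 18 of 31 were above controls (median 0.02), in medulla 23 of 32 (0.11) and in spleen 23 of 34 (0.04), while in lungs 26 of 33 were below (-0.20). Without the array that carried transcripts of another tissue, the counts were 21 of 32 in medulla (0.04) and 23 of 34 in spleen (0.09). In cortex 26 of 31 members were lower without control replicate 1 and 23 without 7 d replicate 3, but 8 without 7 d replicate 1 and 9 without control replicate 3. In spleen 21 of 34 were lower without control replicate 1 and 6 without control replicate 3. No member and no probe (0%) was called lower in these 4 tissues, and an unadjusted p under 0.05 was reached by 4 lower members in lungs (1.48% of all probes) and by no lower member in the other 3. In medulla 3 members were higher at that p (4.29% of all probes), and 2 (4.03%) without the array with hepatocyte transcripts. In spleen 3 were higher at that p (3.79%) only without the array with pancreas transcripts. Lowest were Irgm1 (-0.28) and Ifih1 (-0.15) in cortex, Rsad2 (-0.76) and Oas2 (-0.55) in lungs, and Isg15 (-0.24) and Iigp1 (-0.16) in spleen. Highest were Gbp2 (0.33) and Oas1g (0.30) in cortex, Oas1g (0.48) and Irgm1 (0.20) in lungs, and Oas1g (0.89) and Irf7 (0.51) in spleen. Without the spleen array with pancreas transcripts, Isg15 was at -0.53 and Oas1g at 1.29. In medulla, Ifit2 (-0.63), Ifit3 (-0.55), Bst2 (0.72) and Igtp (0.62) stood at the ends. Without the array with hepatocyte transcripts Ifit2 was at -0.06, Ifit3 at 0.04, Bst2 at -0.07 and Igtp at 0.55.

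The contrast of 1 h with 7 d at 1.7 kBq was negative for 29 of 31 members in cortex (median -0.28), 28 of 32 in medulla (-0.28), 31 of 33 in lungs (-0.23) and 34 of 34 in spleen (-0.32). No member was called, against 0.037% of all probes in cortex and 0% in the other 3. At an unadjusted p under 0.05, 10 members were lower in cortex, 15 in medulla, 8 in lungs and 16 in spleen, against 5.88%, 6.04%, 3.69% and 2.66% of all probes. In medulla, Usp18 was at 7.57, 8.04 and 7.71 at 1 h, against 9.03, 8.57 and 8.78 at 7 d (-1.02, adjusted p = 0.0248), and Parp14 at 7.84, 8.10 and 7.70 at 1 h, against 8.86, 8.59 and 8.92 at 7 d (-0.91, adjusted p = 0.0177). Both genes had separate arrays, and without the array with hepatocyte transcripts the adjusted p were 0.0131 and 0.0129. Ifit3 differed by -1.15 in cortex, -0.72 in lungs and -1.26 in spleen. In medulla it differed by -0.46 (adjusted p = 0.607), and by -1.05 (adjusted p = 0.0209) without that array. Without the spleen array that carried pancreas transcripts, 33 of 34 members were lower there. At 6 h against 7 d, 26 of 31 members were lower in cortex, 27 of 32 in medulla, 24 of 33 in lungs and 26 of 34 in spleen, none called, against 0.037% of all probes in cortex and 0% in the other 3.

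Whether the liver differed from the other tissues was tested directly, as the liver change minus the mean change of the other 4 tissues in 1 fit of all 80 arrays. At 1 h after 1.7 kBq, 25 of 35 members had a more negative value in the liver (median -0.15), and only Iigp1 was called, against 0.147% of all 20435 probes. Its liver change was -1.13 and its mean change in the other tissues -0.02, a difference of -1.11 (SE 0.24, adjusted p = 0.00555). Iigp1 was also the only member called for 105 kBq at 1 h (-1.73, adjusted p = 4.1e-05, 0.22% of all probes) and for 7.5 kBq at 6 h (-1.56, adjusted p = 0.000172, 0.259% of all probes). No member was called at 6 h (0.117% of all probes) or at 7 d (0.0147% of all probes) after 1.7 kBq. For Ifit3 and the other members called in the liver, a difference between the liver and the other tissues was therefore not shown. Control signals of Iigp1 averaged 8.53 in liver, against 6.86 to 7.13 in the other tissues, at or near the cutoff of 6.88. A fall of the size seen in the liver could not have been measured there, so these calls do not show that the Iigp1 response differed between tissues.

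Control tissues differed widely in the basal level of the members. Spleen had the highest control mean for 22 of 36 genes and kidney medulla the lowest for 20. Against the mean of the other control tissues, 14 of 35 measured members were called higher in spleen (13.6% of all probes were called higher). In lungs it was 6 of 35 (10.2%) and in liver 4 of 35 (9.35%). Lower were 11 of 35 in kidney cortex (6.31% of all probes), 11 of 35 in kidney medulla (6.47%) and 2 of 35 in liver (13%). The liver counts were thus near the share of all probes for higher members and under it for lower ones.

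**Figure D5:**
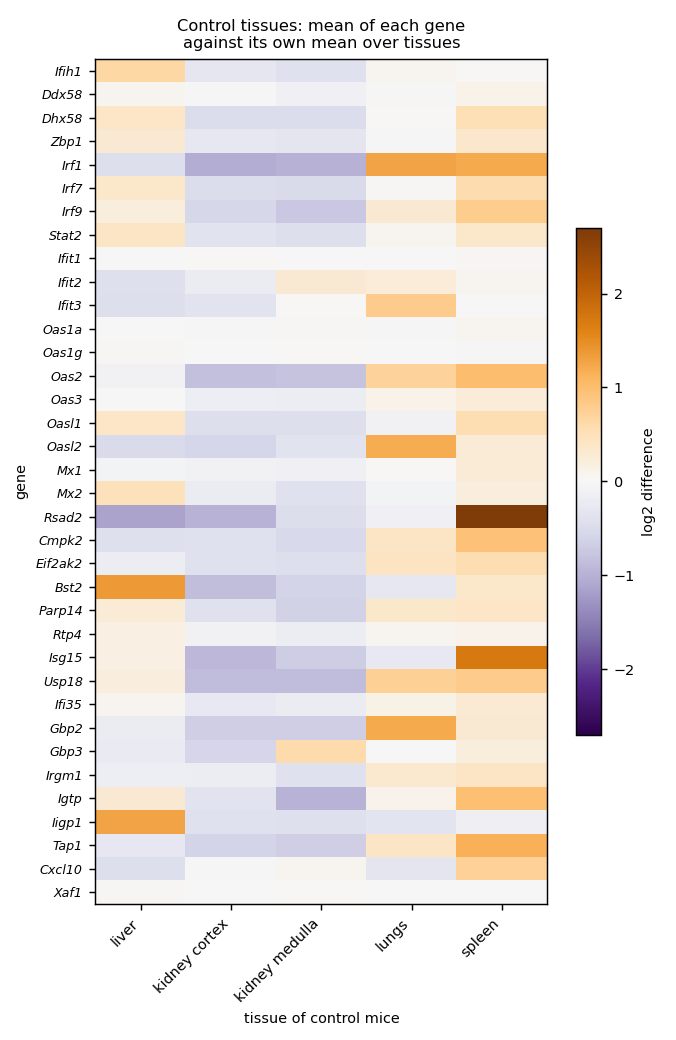
Mean log2 signal of each gene in the 3 control arrays of a tissue minus the mean of its own 5 tissue means, so that colours compare tissues within a row and not genes. Orange is above and purple below. Rsad2 and Isg15 are darkest in spleen, Bst2 and Iigp1 in liver.

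Rsad2 had the largest such difference, with 12.64 ± 0.21 in control spleen, against 8.80 ± 0.27 in liver, 8.98 ± 0.43 in kidney cortex, 9.5 ± 0.08 in kidney medulla and 9.83 ± 0.54 in lungs (SD, n = 3 each). Spleen exceeded the mean of the others by 3.36 (SE 0.26, adjusted p = 2e-16), while the lungs and kidney medulla lay within 1 SD of the lungs of each other. Isg15 was 2.15 higher in spleen (adjusted p = 2.31e-11), followed by Irf1 (1.53), Tap1 (1.44), Oas2 (1.26), Igtp (1.22), Cmpk2 (1.17), Usp18 (1.02), Irf9 (0.99) and Cxcl10 (0.92). Irf7, Eif2ak2, Oasl1 and Dhx58 completed the 14, at 0.74 to 0.67. The 14 came from every role except the IFIT proteins.

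Lungs were above the other tissues for Irf1 (1.58), Gbp2 (1.52), Oasl2 (1.5), Ifit3 (1.01), Usp18 (0.94) and Oas2 (0.88). In the liver, Bst2 (1.74), Iigp1 (1.58), Ifih1 (0.80) and Mx2 (0.61) were above the other tissues, and Rsad2 (-1.44) and Oasl2 (-0.65) below. The kidney regions were low for an overlapping set, both having Irf1, Oas2, Usp18, Isg15, Irf9, Tap1, Irf7 and Dhx58 among their 11 members. Irf1 was at -1.31 in cortex and -1.26 in medulla, and Usp18 at -1.10 in each. Cortex also had Rsad2 (-1.21), Bst2 (-1.07) and Oasl2 (-0.73), and medulla Igtp (-1.24), Parp14 (-0.78) and Cmpk2 (-0.69).

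Oas1g, a gene of the oligoadenylate synthetase cluster, stood apart from the other members on the probe that stood for it. Its further probes averaged 6.71, 6.81 and 6.72 over all arrays, under the background cutoff of 6.88. Whether they rose on the same arrays was not tested, so the values below describe the probe used and may not hold for the gene. That probe was above the cutoff on 0 of 15 control arrays and on 24 of 65 exposed arrays. These were not 24 independent arrays, as 20 of them carried the replicate numbers of only 4 of the 13 exposed sets, a set being the arrays of a group with the same number in the 5 tissues. The 4 sets, above the cutoff in all 5 tissues, were 105 kBq 1 h replicate 1, 1.7 kBq 6 h replicate 2, 7.5 kBq 6 h replicate 2 and 1.7 kBq 7 d replicate 2. In spleen it reached 9.74 on an exposed array, with a median of 6.78 over the 13 exposed arrays, against 6.64 to 6.86 in control spleens. In the liver the exposed arrays ranged from 6.69 to 8.22 around a median of 6.95, against 6.77 to 6.84 in control livers. Replicates of a single group fell on both sides, for example 7.86, 8.22 and 6.80 in livers 6 h after 1.7 kBq, and no comparison passed (smallest liver adjusted p = 0.445). The Oas1g means above controls thus rested on part of the arrays of a group. Ifi35 also had separated levels, but in exposed and control sets alike, 6 of 13 exposed sets and 1 of 3 control sets (replicate 2) being above the cutoff in all 5 tissues. The exposed sets were replicate 2 of every exposed group and 105 kBq 1 h replicate 1. Same-numbered arrays of a group thus shared these levels across tissues, although the labels do not say that they came from the same mouse.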

How the data were processed

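Arrays of 5 tissues (16 per tissue, 80 in all) were Illumina MouseRef-8 bead arrays. The deposited values were linear signal intensities, which the authors quantile-normalised in BASE and which had equal distributions over the arrays. Another deposited table held 80 signal and 80 detection columns that could not be tied to samples, and it was not used.

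Intensities were log2-transformed here and tested per tissue with limma 3.58.1 in R 4.3.3, with 6 group means over 16 arrays and Benjamini-Hochberg adjustment over all probes kept. A probe was kept when at least 2 arrays exceeded 118, which is the mode of all signals (106) plus 2.33 times the SD below it (4.87). Calls required an adjusted p under 0.01 and 1.5-fold. The liver was set against the other tissues, and control tissues against each other, in 1 fit of the 80 arrays, which treated arrays of different tissues as independent. Genes named were the called members (up to 12 per comparison), the 2 at either end of the fold changes where none was called, and at least 1 per role. Other members and further probes, such as those just short of the threshold, were named after their values were seen. The members and lists were chosen with earlier results of these data known. The fit was tested on simulated data with known changes. Python 3.11.15 with numpy 2.4.6, pandas 2.3.3 and matplotlib 3.10.9 served for counts and figures. Alternatives covered the filter, background subtraction, variance estimate, arrays fitted, replicate block, probe choice, threshold and single arrays left out. The number of arrays, 2 or 3 per group, limits the precision.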

Additional observations from a re-analysis of the deposited data

Results flagged for a closer look

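Iigp1, an interferon-inducible GTPase gene, had a more negative change in the liver than in the other 4 tissues in the fit of all arrays. The liver change minus the mean change of the other tissues was -1.11 at 1 h after 1.7 kBq, -1.73 at 1 h after 105 kBq and -1.56 at 6 h after 7.5 kBq. Control signals of this probe averaged 6.86 to 7.13 outside the liver, at or near the background cutoff of 6.88, so a fall of that size could not have been measured there and no difference in response between tissues is shown.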

How the results depend on the processing

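Of the values that answer a comparison, 579 stayed within the limits for no change under the alternatives and 30 moved. Of the single genes, 152 kept their side of the threshold, 50 missed it and none reversed. The cause of each loss was not tested. In the liver 1 h after 1.7 kBq, 10 members were called, and 5 when only the groups compared were fitted. At an adjusted p under 0.05 with no fold threshold it was 18, against 5.07% of all probes. Leaving out single arrays gave 4 to 10. Background subtraction called 7 and enlarged the log2 fold changes, for example to -2.01 for Ifit2, -2.20 for Ifit3, -1.85 for Oasl1 and -1.64 for Cmpk2, and to -4.26 (105 kBq) and -3.87 (7.5 kBq) for Iigp1. At 105 kBq, 2 were called, 1 without the filter, 0 after background subtraction, 1 with trend and robust variance and 0 to 1 without single arrays. The 0.05 threshold gave 6 there, against 4.27% of all probes. At 7.5 kBq, 1 was called, 0 after background subtraction, 3 with trend and robust variance, 3 when any probe counted and 0 to 1 without single arrays. The 0.05 threshold gave 9 there, against 4.32% of all probes. Iigp1 was not among those called with trend and robust variance at either activity. At 6 h after 1.7 kBq the 0.05 threshold gave 2 (2.1% of all probes), and single arrays left out gave 0 to 1. The 1 h against 7 d count was 2, and 1 to 3 without single arrays. In kidney cortex the 0.05 threshold gave 1 at 1 h (0.839% of all probes) and 1 at 6 h after 1.7 kBq (0.234%). In lungs it gave 2 at 1 h after 1.7 kBq (0.437%) and 1 after 105 kBq (0.494%). In kidney medulla 1 h after 1.7 kBq, 1 was called without the array that carried hepatocyte transcripts. Background-corrected raw signals were not run, since those columns could not be tied to samples.

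Over all kept probes, pairing of samples by replicate number was weak. The mean correlation of same-numbered deviations was -0.04 to 0.13 by tissue, against -0.065 to 0.018 for other numbers. The lowest same-numbered pair was negative in each tissue. A mean over all probes cannot exclude pairing, and Ifi35 was above the cutoff in all 5 tissues for replicate 2 of every group. With the replicate number as a block, 11 members were called in the liver 1 h after 1.7 kBq and 2 at 6 h after 7.5 kBq. No other count of calls moved under the block. That check ran within tissues. Between tissues, deviations of same-numbered arrays of a group correlated at 0.082 on average, against -0.05 for other numbers of the same group. With such arrays as a replicate block across tissues, an alternative chosen after seeing the data, the consensus correlation was 0.0284. The calls of Iigp1 and the counts of members called were unchanged in the contrasts of the liver with the other tissues and of the control tissues.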
